A study of Mus musculus with 8 samples.

Results

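AMP-activated protein kinase (AMPK) subunits and the kinases that switch AMPK on were followed in neonatal cardiomyocytes (NCMs) after in utero exposure to filtered air (FA) or diesel exhaust (DE). The genes were chosen by symbol, namely the 7 subunit genes Prkaa1, Prkaa2, Prkab1, Prkab2, Prkag1, Prkag2 and Prkag3 and the upstream kinase genes Stk11, Camkk1 and Camkk2. All 10 were found among the 27179 Entrez genes of the count table, and all 10 passed the filter on low counts. C57Bl/6 J dams breathed FA or DE from the day of the vaginal plug until shortly before birth, and RNA was taken on postnatal day 0 from NCMs of male offspring, 1 heart for each library. FA and DE had 4 libraries each, and no genetic change is named for either group. The NCMs were ventricular cells freed of many fibroblasts by attachment to a plate, so other cell types of the heart remained possible in every library.

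AMPK is a heterotrimer that senses a low energy charge of the cell. An alpha subunit carries the kinase, a beta subunit holds the complex together and binds glycogen, and a gamma subunit binds AMP, ADP and ATP. The kinase becomes active when a threonine in the activation loop of alpha is phosphorylated, mainly by LKB1 (the product of Stk11), which works in a complex with STRAD and MO25 proteins, or by the calcium and calmodulin dependent kinase CaMKK2. In heart muscle AMPK favours glucose uptake and fatty acid oxidation over synthesis, and the heart changes its fuel from glucose and lactate towards fatty acids around birth. Transcript counts measure neither subunit protein nor phosphorylation.

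Libraries held between 17943024 and 39839737 counted fragments. Levels are given as CPM, counts scaled to a common library size with TMM factors, and levels of different genes are compared as CPM per kb of exon sequence. In the sample names the prefix 11 stands in all 4 FA names and in DE replicates 1 and 7, and 12 stands in DE replicates 3 and 5, whose meaning the sources do not give. Prefix 12 is found in DE only, so a fit with the prefix as a term rests its DE difference on DE replicates 1 and 7. It makes the same comparison as the fit with prefix 11 libraries only, so these are not separate checks. Libraries also stood apart in how long transcripts were represented. The fitted length trend, the 10% longest minus the 10% shortest tested genes on the log2 scale, was 0.57 and 0.50 in FA replicates 2 and 4 and -0.46 and -0.59 in DE replicates 3 and 5. The other FA libraries, replicates 3 and 6, were at -0.26 and -0.070, and DE replicates 1 and 7 at 0.17 and 0.13. The main results that rest on these libraries are therefore given also without them or with offsets that remove the trends with length and GC content.
Cardiomyocyte markers were high in every library, and 3 of the 8 were called, Myh6 and Pln lower in DE and Myh7 higher. With prefix 11 libraries only Myh6 alone was called, without FA replicates 2 and 4 together 0 were, and with length and GC offsets 5 were. The main fit, edgeR's quasi-likelihood test on all libraries, called 5.8% of all tested genes. The share was 1.75% with prefix 11 libraries only, 0.313% without FA replicates 2 and 4 and 11.2% with the offsets. The median log2 fold change of the 8 was -0.18 in the main fit and -0.31, -0.25 and -0.33 in those fits. The 8 cardiomyocyte markers summed to between 60395 and 63580 CPM in FA and between 50900 and 59144 CPM in DE, with Myh6 at 13750 CPM or more throughout. Markers of other cells were present too, and the 8 fibroblast markers summed to between 2007 and 3459 CPM in FA and between 3653 and 6173 CPM in DE. All 8 had values above 0 for DE over FA, 6 at an unadjusted p under 0.05, and the edgeR quasi-likelihood test called Col1a1 and Dcn higher, where DESeq2 called 6 and the fit with length and GC offsets 7. Over all tested genes, 25.6% had an unadjusted p under 0.05 in edgeR, and DESeq2 called 10.8%. With prefix 11 libraries only 3 of the 8 fibroblast markers were called, without Dcn, and without FA replicates 2 and 4 together 0 were. Their median log2 fold change was 0.66 in the main fit, 0.82 with prefix 11 libraries only and 0.645 without FA replicates 2 and 4. The last 2 of these fits called 1.75% and 0.313% of all tested genes. The 8 endothelial markers lay between 979 and 1279 CPM in FA and between 1043 and 1554 CPM in DE, and the 7 smooth muscle and pericyte markers between 1153 and 1803 and between 815 and 1247 CPM. The same edgeR test called 0 in either list (3 and 1 at an unadjusted p under 0.05), and DESeq2 called 2 and 1. Leukocyte markers stayed at 27.2 CPM or less in sum, with Itgam called higher by edgeR and Cd68 in its place by DESeq2. Of the 8 erythroid markers, 6 were found and summed to between 429 and 1023 CPM in FA and between 674 and 1122 CPM in DE, with Slc4a1 called higher. Markers of neurons and Schwann cells stayed at 16.3 CPM or less in sum, with Tubb3 called higher. The leukocyte, erythroid and neuron lists had 0 calls with prefix 11 libraries only and without FA replicates 2 and 4. In the main fit and then in these fits, the leukocyte median log2 fold change was 0.57, 0.35 and 0.54. It was 0.42, 0.385 and 0.17 for the erythroid list and 0.16, 0.64 and 0.0034 for neurons and Schwann cells. The part of these cells in the results below was not tested, and in bulk RNA fewer cells of a type and less RNA per cell cannot be told apart.

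The catalytic subunit of NCMs was mostly the alpha2 isoform at the RNA level. Prkaa2 (Entrez 108079, minus strand of chromosome 4 at 105029649 to 105109898, build GRCm38.p6), which encodes alpha2, the isoform known to prevail in heart and skeletal muscle, stood at 47.6 ± 8.84 CPM per kb in FA (SD, n = 4). This was above 91.8% of the 13851 tested genes with a known exon length. Prkaa1 (105787, chromosome 15 from 5143861 to 5181899, plus strand), which encodes the widely expressed alpha1, stood at 8.61 ± 0.993 CPM per kb. Per kb, Prkaa2 made up 85.3%, 83.7%, 85.4% and 83.8% of the alpha transcripts in FA replicates 2, 3, 4 and 6, and 79.5%, 78.3%, 82.7% and 83.9% in DE replicates 1, 3, 5 and 7. Only DE replicate 7 lay within the FA range, and the mean shares were 84.5 ± 0.956% in FA and 81.1 ± 2.64% in DE (SD, n = 4 each).
The sequences before the starts of these genes are shown because the pair encodes the same kind of subunit at levels that differed between 3.61-fold and 5.87-fold per kb within a library. Each is the 250 bases upstream of a RefSeq start, written 5′ to 3′ along the gene, with capitals for the GC box GGGCGG on either strand. The positions are chr15:5143611-5143860 on the plus strand for Prkaa1 and chr4:105109899-105110148 on the minus strand for Prkaa2, both in GRCm38.p6.
Prkaa1: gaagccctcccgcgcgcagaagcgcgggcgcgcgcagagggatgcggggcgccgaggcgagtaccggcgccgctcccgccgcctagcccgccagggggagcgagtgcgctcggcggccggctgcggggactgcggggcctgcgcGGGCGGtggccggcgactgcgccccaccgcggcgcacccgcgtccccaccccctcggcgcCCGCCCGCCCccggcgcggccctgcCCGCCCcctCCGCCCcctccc
Prkaa2: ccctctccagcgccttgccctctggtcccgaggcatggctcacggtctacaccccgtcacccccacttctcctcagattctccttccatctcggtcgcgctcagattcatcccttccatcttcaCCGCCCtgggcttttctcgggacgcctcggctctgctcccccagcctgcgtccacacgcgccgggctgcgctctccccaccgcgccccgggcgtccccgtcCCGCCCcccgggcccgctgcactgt
Prkaa1 had 5 matches to the GC box, with a pair of neighbours overlapping by their ends, and Prkaa2 had 2. Over the 27018 promoters of the same length, 32.9% held at least 1 match. The CCAAT box CCAAT, the TATA box TATAAA and the E-box CACGTG, searched on both strands, had 0 matches in either sequence, and 34.5%, 13.0% and 6.05% of promoters held them. The Prkaa1 sequence held 45 CpG dinucleotides and the Prkaa2 sequence 24, against a median of 6 over all promoters. Such matches describe the letters of these windows only.

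**Figure D1:**
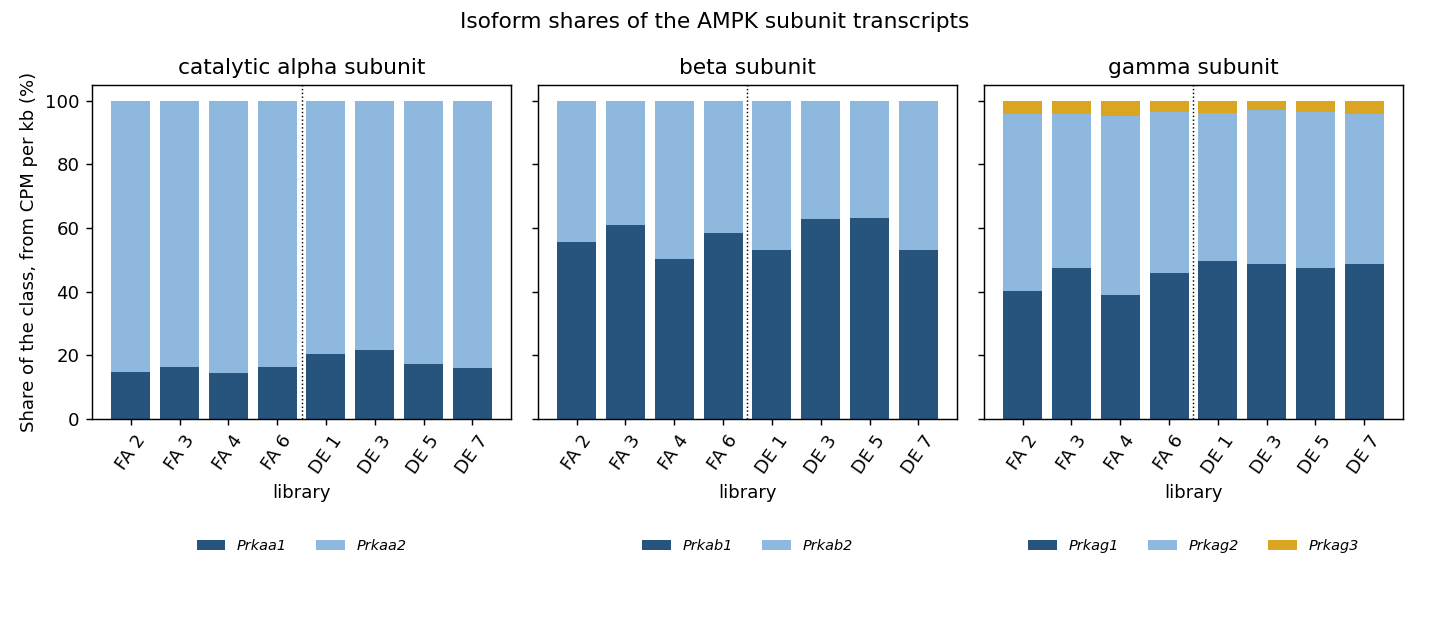
Stacked bars give the share of each isoform (%, from CPM per kb of exon sequence) within the alpha, beta and gamma subunit transcripts of each library, FA left and DE right of the dotted line. Prkaa2 fills 78.3% or more of every alpha bar, while the beta and gamma bars are split between Prkab1 and Prkab2 and between Prkag1 and Prkag2, with Prkag3 as a thin band.

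The beta subunit was of mixed type. Prkab1 (19079, chromosome 5 from 116013586 to 116024503) and Prkab2 (108097, chromosome 3 from 97658211 to 97673812), which encode the beta1 and beta2 scaffolds, stood at 15.4 ± 1.49 and 12.0 ± 1.08 CPM per kb in FA (SD, n = 4 each). Prkab2 made up 43.8 ± 4.53% of the beta transcripts in FA and 42.0 ± 5.72% in DE, and the ranges overlapped. The share was 44.4% or more in FA replicates 2 and 4 and DE replicates 1 and 7, and 41.7% or less in the other 4 libraries. Prkab2 has 5006 bases of exon sequence and Prkab1 has 2135, and the 4 libraries with the larger Prkab2 share are those in which long transcripts were the more represented. A part of length in these shares was not tested.

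Among the gamma subunits, Prkag2 and Prkag1 were near each other. Prkag2 (108099, chromosome 5 from 24862735 to 25106282), which encodes gamma2, the isoform in which mutations cause cardiomyopathy with glycogen storage and pre-excitation, stood at 28.8 ± 0.562 CPM per kb in FA. Prkag1 (19082, chromosome 15 from 98812797 to 98831508), which encodes the widely expressed gamma1, stood at 23.7 ± 4.06 CPM per kb. The ratio of Prkag2 to Prkag1 per kb ran from 1.02 to 1.44 in FA and from 0.935 to 1.04 in DE, and the DE library at the top, replicate 5, lay within the FA range. Prkag3 (241113, chromosome 1 from 74738922 to 74749471) encodes gamma3, which is known from fast skeletal muscle. It was at 2.26 ± 0.250 CPM per kb in FA and took between 2.82% and 4.81% of the gamma transcripts of a library. Markers that define skeletal muscle precursors were at or near 0, with 0 counts of Myod1, 1 of Myf5, 1 of Pax7 and 22 of Myog over the 8 libraries. The 10 skeletal muscle markers, several of which the newborn heart also expresses, summed to between 1035 and 1381 CPM in FA and between 1117 and 1445 CPM in DE, with 0 called by edgeR's quasi-likelihood test or DESeq2 (1 at an unadjusted p under 0.05 in edgeR) and 1, Myh8, with length and GC offsets.

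Of the upstream kinases, Stk11 was the most abundant in every library. Stk11 (20869, chromosome 10 from 80115767 to 80130679) stood at 24.2 ± 2.65 CPM per kb in FA, Camkk2 (207565, chromosome 5 from 122718380 to 122779522) at 2.40 ± 0.565 and Camkk1 (55984, chromosome 11 from 73016043 to 73042073) at 0.284 ± 0.0615 (SD, n = 4 each). Stk11 made up 89.9 ± 2.77% of the upstream kinase transcripts in FA and 89.4 ± 1.67% in DE. Camkk1, which is known mainly from brain, rested on 16 to 52 counts in a library, so its values are the least precise. CaMKK2 transcripts outnumbered CaMKK1 transcripts by 5.10-fold to 9.40-fold per kb in single libraries.
From highest to lowest, the FA means per kb ran Prkaa2, Prkag2, Stk11, Prkag1, Prkab1, Prkab2, Prkaa1, Camkk2, Prkag3 and Camkk1. The FA ranges of Stk11 and Prkag1 overlapped, as did those of Camkk2 and Prkag3, and in both pairs the order changed between FA libraries. The ranges of Prkag2 and Prkag1 overlapped too, although Prkag2 was the higher in each of the 4 FA libraries. The alpha transcripts summed to 56.2 ± 9.82 CPM per kb in FA, the gamma transcripts to 54.8 ± 4.25 and the beta transcripts to 27.4 ± 0.558. In DE these sums were 41.1 ± 8.36, 48.4 ± 5.86 and 24.2 ± 1.78 CPM per kb. The beta sums did not overlap between the groups, at 26.9 CPM per kb or more in FA and 25.9 or less in DE, while the alpha and gamma sums overlapped. No test was run on these sums, and of all tested genes 14.7% had CPM ranges without overlap.

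**Figure D2:**
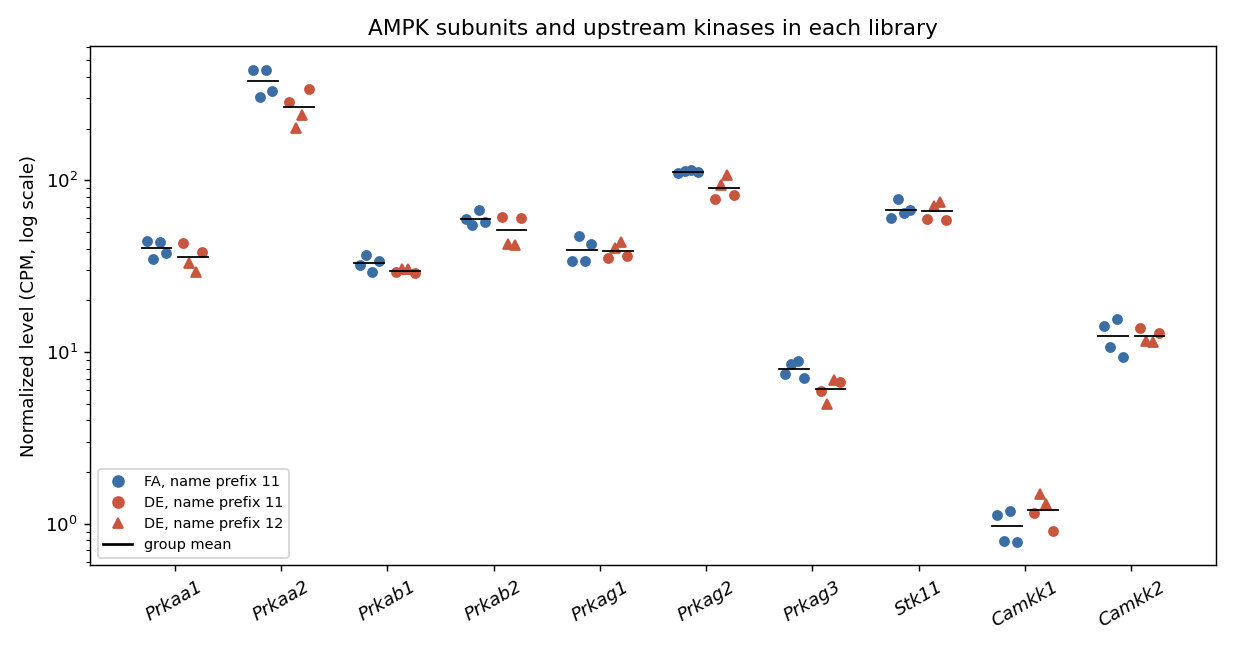
Points give the level of each gene in each library (CPM, log scale), blue for FA and red for DE, with triangles for the DE libraries of prefix 12 and black lines for group means. The groups do not overlap for Prkag2 and Prkag3, and they overlap for the other 8 genes.

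To ask whether DE altered the transcription of AMPK and its activators, the quasi-likelihood test of edgeR set the groups against each other over 14966 genes. Called genes had an adjusted p of 0.05 or less and a level at least 25% higher in 1 group than in the other. Of all tested genes 5.8% were called, 2.22% lower and 3.58% higher in DE. Of the 10 genes, 0 were called. At an unadjusted p under 0.05 there were 3, Prkaa2, Prkag2 and Prkag3, against 25.6% of all tested genes. Litters are not stated, so p-values measure the spread between these libraries. DESeq2, limma-voom and edgeR's likelihood ratio test also called 0 of the 10. Fitted log2 fold changes were below 0 for 9 of the 10 genes, including all 7 subunits (49.5% of all tested genes), but library totals alone turned Prkag1, Stk11 and Camkk2 above 0, and a term for the name prefix did so for Prkaa1, Prkab2 and Camkk2. The median was -0.23 over the subunits and 0.0037 over all tested genes.

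Prkaa2 had the largest fitted difference among the 10 in the main fit. It did not rank first with length and GC offsets, with prefix 11 libraries only or without FA replicates 2 and 4. Its levels were 441, 307, 438 and 331 CPM in FA replicates 2, 3, 4 and 6 and 284, 203, 239 and 341 CPM in DE replicates 1, 3, 5 and 7. FA replicates 2 and 4 were above all other libraries, DE replicates 3 and 5 were below them, and DE replicate 7 exceeded FA replicates 3 and 6. The log2 fold change was -0.51 (standard error 0.17, 95% interval -0.89 to -0.13, edgeR adjusted p = 0.101), so the interval reached from a level 45.9% lower to 8.6% lower.
The extremes were the libraries that stood apart in the length trend, and with 7969 bases of exon sequence Prkaa2 was longer than 92.6% of tested genes. Whether transcript length bears on this pattern was not tested. With prefix 11 libraries only, the log2 fold change of Prkaa2 was -0.28 (edgeR, adjusted p = 0.463), and without FA replicates 2 and 4 together it was -0.26 (edgeR, adjusted p = 0.606). With length and GC offsets, the levels of FA replicates 2, 3, 4 and 6 drew together at 351, 347, 357 and 330 CPM. DE replicates 1, 3, 5 and 7 were then at 259, 258, 311 and 307 CPM. On this scale all DE libraries lay below all FA libraries, and the log2 fold change was -0.29 with an adjusted p of 0.0401 in edgeR. The adjusted p passed the threshold and the difference did not reach 25%, so the gene was not called there either. The fit with offsets called 11.2% of all tested genes, against 5.8% in the main fit. Prkab1 and Prkag3 did not overlap on this scale either, and the share of all tested genes without overlap on it was not measured. Prkaa1, at 44.4, 35.0, 43.6 and 37.5 CPM in FA and 42.9, 32.8, 29.3 and 38.1 CPM in DE, overlapped between the groups, with a log2 fold change of -0.17 (95% interval -0.46 to 0.13, edgeR adjusted p = 0.456). Its value was 0.01 with prefix 11 libraries only.

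Prkag2 was the steadiest of the genes in FA, at 109.9, 113.9, 114.4 and 111.0 CPM in replicates 2, 3, 4 and 6. In DE it was at 77.8, 94.3, 107.6 and 82.0 CPM in replicates 1, 3, 5 and 7, each below the lowest FA library. Ranges without overlap were seen for 2 of the 10 genes, Prkag2 and Prkag3, and for 14.7% of all tested genes. Its log2 fold change was -0.31 (standard error 0.11, 95% interval -0.55 to -0.07, edgeR adjusted p = 0.112). The DE libraries of prefix 11 were the lower pair. With the prefix as a term the log2 fold change was -0.49, and this was the only fit among the alternatives in which any of the 10 genes was called (edgeR, adjusted p = 0.0328). That fit called 2.99% of all tested genes and rests its DE difference on DE replicates 1 and 7. With prefix 11 libraries only, the same comparison, the log2 fold change of Prkag2 was -0.50 (edgeR, adjusted p = 0.0534). Offsets for length and GC left the value at -0.31 (edgeR, adjusted p = 0.0805), and DE replicate 5 then stood within the FA range. Several long noncoding genes lie inside the Prkag2 span, of which Prkag2os1, 1500035N22Rik and 2900005J15Rik were in the count table on the opposite strand, at 1.12 CPM or less in every library.
Prkag3 was at 7.48, 8.56, 8.91 and 7.03 CPM in FA and 5.96, 4.99, 6.85 and 6.71 CPM in DE, so the highest DE library lay just under the lowest FA library. Its log2 fold change was -0.38 (95% interval -0.70 to -0.07, edgeR adjusted p = 0.129) on 126 to 280 counts a library. Without FA replicates 2 and 4 together, Prkag2 was at -0.32 and Prkag3 at -0.35 (edgeR, adjusted p = 0.413 and 0.483). Prkag1 was at 33.6, 47.2, 33.7 and 42.4 CPM in FA and 35.2, 40.1, 43.8 and 36.2 CPM in DE, with a log2 fold change of -0.01 (95% interval -0.30 to 0.27, edgeR adjusted p = 0.965). It was -0.14 with prefix 11 libraries only, -0.15 with length and GC offsets and -0.21 without FA replicates 2 and 4. Its FA values were split, with replicates 2 and 4 low and replicates 3 and 6 high, and with 1652 bases it was longer than only 15.6% of tested genes. Prkag1 and Prkaa2 were thus split in opposite ways between the same FA libraries, and the cause was not tested.

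**Figure D3:**
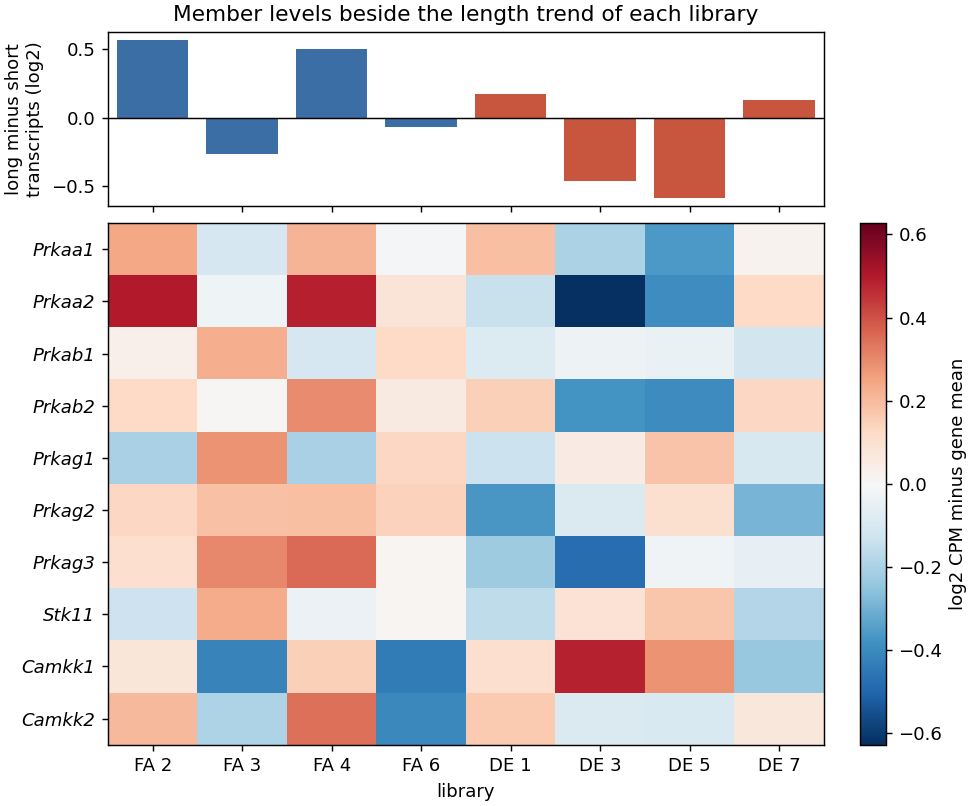
The upper bars give the length trend of each library (log2 difference between the 10% longest and 10% shortest tested genes), and the tiles give log2 CPM of each gene minus its mean over the 8 libraries. Prkaa2 (7969 bases) is high in FA replicates 2 and 4 and low in DE replicates 3 and 5, as is the trend, while Prkag1 (1652 bases) is low in FA replicates 2 and 4.

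Prkab1 was at 31.9, 36.6, 29.0 and 34.0 CPM in FA and 29.4, 30.5, 30.4 and 28.8 CPM in DE, so FA replicate 4 lay among the DE libraries. Its log2 fold change was -0.14 (95% interval -0.36 to 0.07, edgeR adjusted p = 0.378). With length and GC offsets it was -0.27 (edgeR, adjusted p = 0.0407), and the groups, at 32.1 CPM or more in FA and 30.6 CPM or less in DE, did not overlap. This difference too was under 25%, in a fit that called 11.2% of all tested genes against 5.8% in the main fit. Without FA replicate 3 the value was -0.09 and with library totals alone -0.07. Prkab2 was at 59.8, 55.2, 67.4 and 57.0 CPM in FA and 60.9, 42.3, 41.8 and 60.0 CPM in DE. The DE libraries of prefix 12 were below all others and those of prefix 11 were within the FA range. Its log2 fold change was -0.23 (95% interval -0.54 to 0.09, edgeR adjusted p = 0.342), and 0.01 with prefix 11 libraries only.

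For the upstream kinases the groups overlapped. Stk11 was at 60.6, 77.9, 64.6 and 66.8 CPM in FA and 59.5, 70.7, 74.7 and 58.3 CPM in DE, with a log2 fold change of -0.04 (95% interval -0.29 to 0.22, edgeR adjusted p = 0.875). The interval covers levels from 18.2% lower to 16.5% higher. With prefix 11 libraries only the value was -0.20, with length and GC offsets -0.18 and without FA replicates 2 and 4 -0.14. Camkk2 was at 14.1, 10.8, 15.6 and 9.29 CPM in FA and 13.8, 11.5, 11.5 and 12.9 CPM in DE, with a log2 fold change of -0.01 (95% interval -0.36 to 0.35, edgeR adjusted p = 0.986). All 4 DE values lay inside the FA range. Camkk1 was at 1.12, 0.797, 1.18 and 0.786 CPM in FA and 1.15, 1.49, 1.30 and 0.906 CPM in DE. Its fitted value was above 0 at 0.33 on the log2 scale (95% interval -0.19 to 0.84, edgeR adjusted p = 0.404), and at this depth a difference of this size was not resolved. It was 0.09 with prefix 11 libraries only, 0.21 without DE replicate 3 and 0.62 without FA replicates 2 and 4. Camkk2 shares part of its span with P2rx4, Stk11 overlaps Cbarp by 246 bases and Camkk1 overlaps a noncoding gene, all on the opposite strand. The strand setting of the counting is not stated, so reads from shared bases cannot be told apart.

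**Figure D4:**
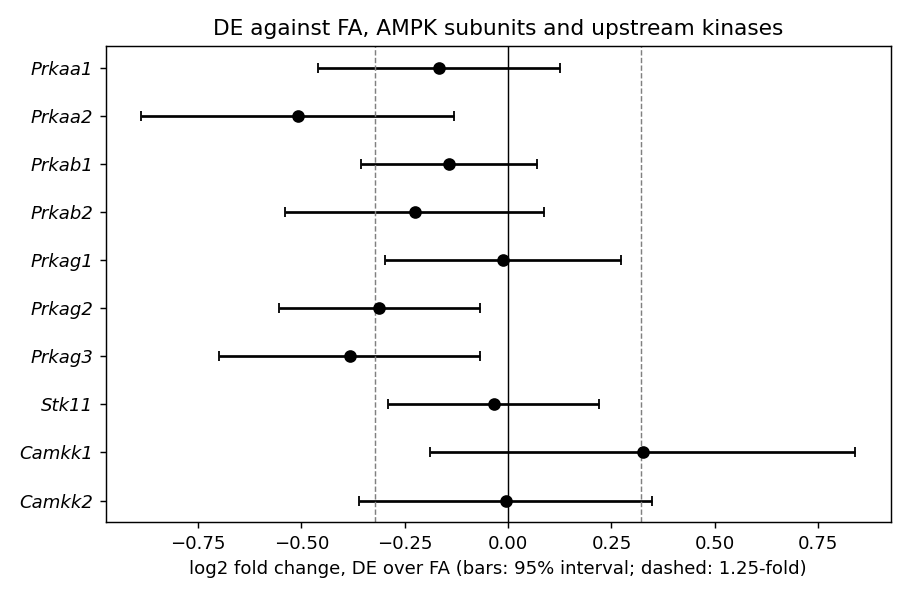
Points give the fitted log2 fold change of DE over FA for each gene and bars its 95% interval from edgeR's quasi-likelihood fit (4 libraries a group), with dashed lines at a 25% difference. The intervals of Prkaa2, Prkag2 and Prkag3 lie below 0, the other 7 include 0, and no adjusted p is under 0.101.

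The genes around AMPK were taken from 9 lists of partners, regulators and substrates, 62 genes of which 61 were tested. In these lists 4 genes were called, Ppm1e, Tbc1d4, Acacb and Lipe. All 4 were lower in DE, which is 6.56% of the genes tested in the lists, against 2.22% of all tested genes called lower and 5.8% called in either direction. At an unadjusted p under 0.05 there were 20, or 32.8%, 13 of them lower, against 25.6% of all tested genes. The median log2 fold change was -0.08, and 38 of the 61 were below 0. FA and DE levels stayed fully apart, with no overlap, in 9 genes from these lists (14.8%). This share was close to the 14.7% over all tested genes. The count of 4 was 2 without FA replicate 2, FA replicate 4, DE replicate 3 or DE replicate 5, 7 without DE replicate 1, and 2 without FA replicates 2 and 4 together. Calls over all tested genes moved too, from 868 to 249, 237, 268 and 526 in the first 4 of these fits, to 1168 without DE replicate 1 and to 48 without FA replicates 2 and 4. Acacb and Lipe were called in all of these fits.
Of the 4 partners of LKB1, edgeR's quasi-likelihood test called 0 (1 at an unadjusted p under 0.05), and DESeq2 and edgeR's likelihood ratio test called 1, Stradb. Stradb, which encodes a pseudokinase that holds LKB1 in its active form, was at 36.7, 41.9, 37.1 and 33.0 CPM in FA and 25.4, 28.3, 29.8 and 29.9 CPM in DE. Its groups did not overlap, and its log2 fold change of -0.39 had an adjusted p of 0.0506 in edgeR's quasi-likelihood test, just outside the threshold. Without FA replicates 2 and 4 it was at -0.41 (edgeR, adjusted p = 0.298). The other pseudokinase, Strada, was at -0.07 on the log2 scale (edgeR, adjusted p = 0.721). The MO25 scaffold genes Cab39 and Cab39l were at -0.17 and 0.25 (edgeR, adjusted p = 0.351 and 0.201).
Among 11 other regulators of AMPK, 1 was called. Ppm1e, which encodes a phosphatase known to remove the activating phosphate from AMPK, was at 54.4, 44.3, 49.1 and 40.0 CPM in FA and 36.1, 32.9, 34.3 and 32.6 CPM in DE. Every DE library lay below every FA library, and the log2 fold change was -0.47 (standard error 0.11, edgeR adjusted p = 0.0336). The call was lost with length and GC offsets, where the value was -0.31 (edgeR, adjusted p = 0.0651). It was also lost with the prefix as a term at -0.45, with prefix 11 libraries only at -0.45 and without FA replicates 2 and 4 at -0.31 (edgeR, adjusted p = 0.0973, 0.137 and 0.332). Flcn, whose product folliculin forms a complex with the FNIP proteins that binds AMPK, was at -0.46 (edgeR, adjusted p = 0.0662). DESeq2, edgeR's likelihood ratio test and the fit with length and GC offsets called Flcn lower. DE replicate 1, at 98.6 CPM, was the only DE library inside the FA range for this gene. The sestrin genes Sesn1 and Sesn2, whose stress-induced products favour AMPK activity, were at 0.38 and 0.32 (edgeR, adjusted p = 0.191 and 0.0954). With the name prefix as a term Sesn1 was called higher at 0.68 (edgeR, adjusted p = 0.00903), and likewise with prefix 11 libraries only (edgeR, adjusted p = 0.0215). Both set DE replicates 1 and 7 against the FA libraries, and without DE replicate 1 Sesn1 was at 0.21 (edgeR, adjusted p = 0.38). Sesn1 stood at 151 and 129 CPM in DE replicates 1 and 7 and between 82.0 and 95.6 CPM in the other 6 libraries. The third sestrin gene, Sesn3, was at -0.33 (edgeR, adjusted p = 0.501).

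Other kinases that LKB1 switches on were measured beside AMPK. Of the 11 that were tested, edgeR and DESeq2 called 0 (1 at an unadjusted p under 0.05 in edgeR), and Brsk2, with 26 counts in all, was not tested. Sik2, a salt-inducible kinase, had the largest difference at -0.61 (edgeR, adjusted p = 0.182). Its levels of 21.8, 13.9, 21.6 and 12.2 CPM in FA and 15.7, 7.77, 7.88 and 14.7 CPM in DE had the same high and low libraries as Prkaa2. It was at -0.20 with prefix 11 libraries only, -0.20 without FA replicates 2 and 4 and -0.55 with length and GC offsets (edgeR, adjusted p = 0.721, 0.83 and 0.0973). Nuak2 and Sik1 were at 0.24 and 0.21 (edgeR, adjusted p = 0.309 and 0.389).
On the calcium side, the list of 7 genes around the CaMKKs had a median of 0.18, and 5 were above 0. The quasi-likelihood test of edgeR called 0 (1 at an unadjusted p under 0.05), while DESeq2 and edgeR's likelihood ratio test called 1, Camk1. Camk1, a calmodulin-dependent kinase that the CaMKKs phosphorylate, was at 40.1, 50.0, 44.2 and 50.1 CPM in FA and 53.5, 65.8, 68.6 and 55.2 CPM in DE, without overlap. Its log2 fold change was 0.40 (standard error 0.12, edgeR adjusted p = 0.0670). The value was 0.23 with prefix 11 libraries only, 0.24 with the prefix as a term and 0.27 without FA replicates 2 and 4 (edgeR, adjusted p = 0.402, 0.315 and 0.458). Camk1g, a kinase of the same family, was at 0.35 (edgeR, adjusted p = 0.256).

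Among AMPK substrates, 2 of the 7 genes of lipid metabolism were called, Acacb and Lipe. Both are also among the genes the study chose on libraries of this series, so their direction here is not independent evidence. Acacb encodes the acetyl-CoA carboxylase whose malonyl-CoA restrains fatty acid entry into mitochondria, and AMPK phosphorylates and inhibits it. It was at 355, 293, 330 and 275 CPM in FA and 173, 142, 154 and 142 CPM in DE (log2 fold change -1.04, edgeR adjusted p = 0.000686). Lipe, hormone-sensitive lipase, was at 20.2, 21.9, 18.1 and 20.3 CPM in FA and 9.98, 9.58, 8.13 and 10.2 CPM in DE (log2 fold change -1.09, edgeR adjusted p = 0.000552). Every DE library was below every FA library for both genes. Srebf1, a transcription factor of lipid synthesis, was at 0.35 (edgeR, adjusted p = 0.0643), with DESeq2 calling it higher.
Of the 6 substrates in glucose metabolism 1 was called, and 5 had an unadjusted p under 0.05, of which 3 were lower and 2 higher. Tbc1d4, which encodes a Rab GTPase-activating protein that restrains the glucose transporter GLUT4 until phosphorylated, was at 113, 89.4, 101 and 92.2 CPM in FA and 76.2, 65.3, 67.3 and 78.4 CPM in DE. The groups did not overlap, and the log2 fold change was -0.46 (standard error 0.11, edgeR adjusted p = 0.0328), not called with prefix 11 libraries only at -0.36 (edgeR, adjusted p = 0.188). Nor was it called with the prefix as a term at -0.36 or without FA replicates 2 and 4 at -0.34 (edgeR, adjusted p = 0.139 and 0.321), but it was called with length and GC offsets at -0.36 (edgeR, adjusted p = 0.00965). Pfkfb2, which encodes the heart isoform of an enzyme that speeds glycolysis, and Txnip, an inhibitor of glucose uptake, were at -0.43 and -0.35 (edgeR, adjusted p = 0.0955 and 0.123). Pfkfb2 was called lower with length and GC offsets at -0.35 (edgeR, adjusted p = 0.0312), and was at -0.25 both with prefix 11 libraries only and without FA replicates 2 and 4. Glycogen synthase Gys1 and the phosphofructokinase regulator Pfkfb3 were above 0, at 0.29 and 0.24 (edgeR, adjusted p = 0.168 and 0.127), and the groups of Pfkfb3 did not overlap. Gys1 was at 0.12 with prefix 11 libraries only and 0.17 without FA replicates 2 and 4.
The 6 substrates in growth, autophagy and mitochondria had 0 calls in edgeR's quasi-likelihood test (1 at an unadjusted p under 0.05) and 1, Rptor, in DESeq2 and in the edgeR fit with length and GC offsets. Rptor, the mTORC1 subunit raptor, was at -0.36 (edgeR, adjusted p = 0.0864). The 7 substrates in transcription had 0 calls in edgeR and DESeq2 (1 at an unadjusted p under 0.05 in edgeR). The widest was the acetyltransferase gene Ep300 at -0.48 (edgeR, adjusted p = 0.178). Without FA replicates 2 and 4 it was at -0.13 and with length and GC offsets at -0.31 (edgeR, adjusted p = 0.85 and 0.0852). Ppargc1a, a coactivator of mitochondrial genes, was at -0.26 (edgeR, adjusted p = 0.310). Of the pair in contraction and vessels, 0 were called by edgeR or DESeq2 (1 at an unadjusted p under 0.05 in edgeR). Nos3, endothelial nitric oxide synthase, was at 0.32 (edgeR, adjusted p = 0.165), and Tnni3, cardiac troponin I, at -0.06 (edgeR, adjusted p = 0.819).

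**Figure D5:**
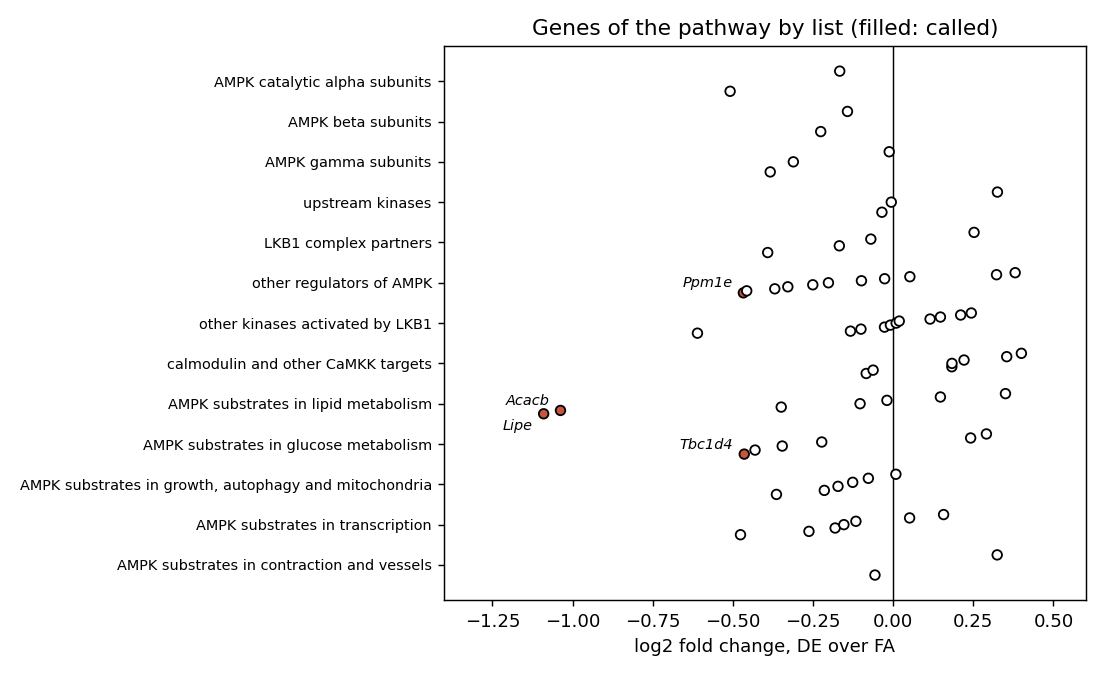
Points give the fitted log2 fold change of DE over FA for each tested gene, sorted by list, with the called genes filled and named. Only Ppm1e, Tbc1d4, Acacb and Lipe are called, all lower in DE, and the subunit genes lie between -0.51 and -0.01.

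The genes whose pattern over the 8 libraries was most like that of the leading gene of each role were found by the mean absolute difference of standardized log2 CPM. For Prkaa2 these were Ythdc2 and Larp4, which encode RNA-binding proteins, at 0.0493 and 0.0782, where the median over tested genes was 1.16. With 7215 and 6985 bases of exon sequence, both are long transcripts like Prkaa2. Ythdc2 was at 54.8, 39.4, 54.0 and 43.2 CPM in FA and 38.9, 27.6, 32.2 and 43.8 CPM in DE. The same libraries were high and low as for Prkaa2, and why these genes run alike was not tested.
For Prkag2 the nearest were Carns1, carnosine synthase, and Pex5, the import receptor of peroxisomes, at 0.149 and 0.202 (median 1.11). For Prkab1 they were Snord104 and Akap8l at 0.194 and 0.235 (median 1.12), and for Stk11 Snx15 and Fdx1 at 0.0937 and 0.101 (median 1.08).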

How the data were processed

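RNA of neonatal cardiomyocytes was sequenced from poly-A selected, stranded libraries, 4 for FA and 4 for DE. The authors deposited raw fragment counts per Entrez gene, and the submitters' processing notes name TopHat, featureCounts and mm10, with the strand setting and the handling of multiple matches not given in the sources used here. The study's methods state fewer RNA libraries per group than are labelled here and do not name them, so every library labelled FA or DE was used. The most alike libraries of a group, FA replicates 2 and 4, had a chi-square per gene of 5.37, above sampling noise. The next closest pair, DE replicates 1 and 7, had 17.1, and the widest pair 67.4. The counts alone cannot show whether FA replicates 2 and 4 are independent, and all libraries counted separately.
Counts were analysed in R 4.3.3 with edgeR 4.0.16 (filterByExpr, minimum count 10, TMM factors, quasi-likelihood test, Benjamini-Hochberg adjustment over 14966 genes). Calls needed an adjusted p of 0.05 or less and a difference of at least 25%. Exon lengths came from the GENCODE M21 basic annotation, positions and promoters from RefSeq GRCm38.p6, and length and GC were known for 92.55% of tested genes. Symbols matched 25275 of 27179 genes. DESeq2 1.42.0 and limma 3.58.1 were alternatives, and the steps were tested on simulated data.
The 10 genes, the lists and the tests were chosen with earlier results of these data known. Of the pathway lists, every called gene and up to 3 of each list by size of change are named, with genes that set the others in context, and for the leading gene of each role the 2 genes of most similar pattern. The settings that use the longest transcript or leave out FA replicates 2 and 4 together were added after seeing the data.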

Additional observations from a re-analysis of the deposited data

How the results depend on the processing

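Of the 10 genes, 0 were called under each of the 22 alternatives except a term for the name prefix, which gave 1 (Prkag2). With that term 2.99% of all tested genes were called. Leaving out single libraries gave 0 throughout. Adjusted p over the alternatives (edgeR, DESeq2 or limma) ran from 0.0401 to 0.606 for Prkaa2, from 0.0328 to 0.959 for Prkag2 and from 0.0694 to 0.768 for Prkag3, and these 3 values, with those of Prkab1 and Camkk1, kept their direction. With the prefix as a term the log2 fold changes of Prkaa1, Prkab2 and Camkk2 turned to 0.0152, 0.0146 and 0.0994, and with prefix 11 libraries only to 0.0108, 0.0101 and 0.0951. Prkag1 and Camkk2 turned to 0.0121 and 0.0211 with upper quartile factors, and Prkag1, Stk11 and Camkk2 to 0.0592, 0.0367 and 0.0645 with library totals alone. Camkk2 also turned to 0.0069 with limma-voom, 0.0017 with no filter, 0.0218 with length and GC offsets and 0.30 without FA replicates 2 and 4. Leaving out single libraries gave -0.0858 to 0.0861 for Prkag1, -0.102 to 0.039 for Stk11 and -0.123 to 0.109 for Camkk2. Prkag1 and Stk11 also moved down, as far as -0.21 (without FA replicates 2 and 4) and -0.20 (prefix 11 only). The causes of these turns were not tested.
Pathway genes called, 4 in the report, were 9 with DESeq2, 8 with edgeR's likelihood ratio test, 7 with length and GC offsets, 2 with the 25% difference built into the test and 2 without FA replicates 2 and 4, and from 2 to 7 without single libraries. Over all tested genes, 10.8%, 10.7%, 11.2%, 0.762% and 0.313% were called in the first 5 of these, against 5.8%. Acacb and Lipe were called in all 22 alternatives, while Ppm1e lost its call in 12 and Tbc1d4 in 8.
From CPM not divided by length, the mean shares in FA and DE were 90.35% and 87.99% for Prkaa2, 64.47% and 62.74% for Prkab2, 70.5% and 66.68% for Prkag2 and 83.3% and 82.65% for Stk11. With the longest transcript as length, Prkag2 was at 51.29% in DE and Stk11 at 86.6% and 86.02%. Prkab2 is the larger part of beta only without division by length.
No paired analysis was possible because the labels give no pairing of FA with DE libraries. With 4 libraries a group, 95% intervals of the subunits reached up to 45.9% lower or 20.9% higher, and Camkk1 rested on 16 to 52 counts a library.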
